A study of Mus musculus with 30 samples.

Results

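Rgcc, the gene for regulator of cell cycle (also called RGC-32), was followed across all 30 libraries of a mouse muscle cell experiment. It is 1 of the 16025 gene symbols in the deposited count table and was taken by its symbol. It was selected on its log2 fold change between the D-galactose and vehicle control libraries. That change was the largest among genes above a minimum level in earlier results from these data. Its values in those libraries are therefore given as a description with no test. The cells were wildtype C2C12 myotubes, the fused muscle cells that form when this mouse myoblast line is put into medium with little serum. Cultures received vehicle (control), or 1 of 4 preparations for 12 h: Korean Red Ginseng water extract (RGW), its saponin fraction (SFr) or its non-saponin fraction (NSFr), each at 100 µg/mL, or the purified saponin ginsenoside Rb2 at 20 µM. D-galactose, a sugar that serves as a model of cell ageing, was given at 20 mg/mL for 24 h alone (Dgal) or after each preparation (RGW_Dgal, SFr_Dgal, NSFr_Dgal, Rb2_Dgal). Each of the 10 groups held 3 libraries, called biological replicates in the series' design text. The labels give 12 h for a preparation alone and 12 h followed by 24 h for a combination. Whether the cultures with a preparation alone stayed in medium for the further 24 h is not stated there. D-galactose and a longer culture therefore cannot be told apart in those pairs. For the vehicle control, and for Dgal before the sugar, the sample data used here hold no hours. Culture time may thus differ in comparisons with these groups too.

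The RGCC protein binds CDK1, the kinase that with cyclin B starts mitosis, and was first described as the product of a gene induced by complement. It is known as a target of p53 in tumour cells, where it meets the mitotic kinase PLK1, and as a gene induced by TGF-beta that works with SMAD3 in the differentiation of smooth muscle. Depending on the cell, it has been described as promoting or as restraining division.

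Totals per library ranged from 22209306 to 30218420 counts, and 3 counts corresponded to 0.0993 to 0.135 CPM, the count scaled by the TMM-adjusted size of its library. Of the myotube markers, 18 of 20 were in the table, and 18 had a mean of at least 1 CPM, led by Acta1, skeletal actin, at 7043 CPM. Markers of undifferentiated myoblasts were also present, 12 of 14 at a mean of at least 1 CPM. Among 10 endothelial and immune cell markers, 8 were in the table, 0 of them was at 0 in every library, and 1 had a mean of at least 1 CPM, the macrophage gene Cd68 at 1.91 CPM. Fat cell markers reached that level in 2 of 8 cases and bone and cartilage markers in 2 of 8. In RNA from whole cultures, fewer cells of a type and less RNA per cell cannot be told apart.

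Rgcc (ENSMUSG00000022018.7) is a protein-coding gene on the minus strand of chromosome 14, at 79288756 to 79301645 on GRCm38. The GENCODE vM21 annotation gives it 1 transcript of 5 exons with 918 exonic bases, of which 411 are coding, and lists 0 other genes that overlap it. Expected counts of Rgcc ran from 68 to 353 per library, and in 0 of 30 libraries did the value lie more than 0.05 from a whole number. Rgcc averaged 6.98 CPM over the 30 libraries, above 23.6% of the 12184 genes tested. The stretch before its start is shown because it is the region from which the gene is read: chr14:79301646-79301885 on GRCm38.p6, minus strand, from RefSeq. It runs from 250 to 11 bases before the RefSeq start, and capitals mark the GC box, GGGCGG, on either strand.

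Rgcc upstream: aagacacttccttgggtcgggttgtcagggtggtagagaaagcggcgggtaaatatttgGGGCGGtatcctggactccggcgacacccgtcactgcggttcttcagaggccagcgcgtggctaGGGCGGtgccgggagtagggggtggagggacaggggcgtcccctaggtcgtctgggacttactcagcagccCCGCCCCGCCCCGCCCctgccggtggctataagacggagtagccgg

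This window held 5 GC boxes, beginning 191, 127, 56, 51 and 46 bases before the start, and was 65.8% G and C against a median of 52.1% over all promoters. The GC box was in the same window of 31.5% of 27025 RefSeq promoters, and of 56.7% of the 9683 that belong to genes tested here. CAGAC, the letters bound by SMAD proteins, occurred once in the Rgcc window on either strand, as it did at least once in 40.8% of all promoters. Of the other motifs searched on both strands, none had a match in these 240 bases. The FOXO motif TGTTTAC was in 2.99% of all promoters, the hypoxia response motif ACGTG in 15.9%, and the E-box CACGTG, which contains the hypoxia letters, in 5.71%. The CCAAT box was in 33.7%, the cell-cycle element TTTGAA in 15.8%, the AP-1 motif TGANTCA in 6.69% and the TATA box TATAAA in 12.7%.

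Rgcc was low in every culture without D-galactose. In the vehicle control it measured 4.32, 5.02 and 5.07 CPM. The Dgal libraries held 12.5, 13.4 and 13.7 CPM, so that the groups that chose the gene stood well apart. Their means were 4.80 ± 0.420 and 13.2 ± 0.636 CPM (SD, n = 3), a log2 fold change of 1.47, in a comparison where 25.1% of genes were called. Just behind Rgcc among the risers of that comparison were Slc16a6, of the monocarboxylate transporter family, at 1.29 and the arrestin family gene Arrdc3 at 1.07.

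The cultures given a preparation did not enter the fold change of that choice. They did enter the minimum mean of 5 CPM used for ranking here, which was taken over all 30 libraries. RGW alone gave 2.77, 3.79 and 3.83 CPM and RGW_Dgal gave 5.86, 7.88 and 8.21 CPM, with the first library the lowest in both. SFr alone gave 3.44, 4.29 and 4.36 CPM and SFr_Dgal 9.57, 9.83 and 11.1 CPM. The highest library without the sugar was in each case below the lowest with it. NSFr alone gave 3.03, 3.75 and 4.21 CPM, while the NSFr_Dgal libraries lay close together at 6.83, 7.12 and 6.97 CPM. Rb2 alone gave 4.87, 3.98 and 4.42 CPM and Rb2_Dgal 11.5, 13.2 and 10.4 CPM. All 3 libraries with D-galactose thus stood above all 3 without it in 4 of 4 pretreated backgrounds, a separation shown in all 4 by 3.39% of the genes tested, and in single backgrounds by 13.4% (RGW), 15% (SFr), 15.3% (NSFr) and 19% (Rb2).

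**Figure D1:**
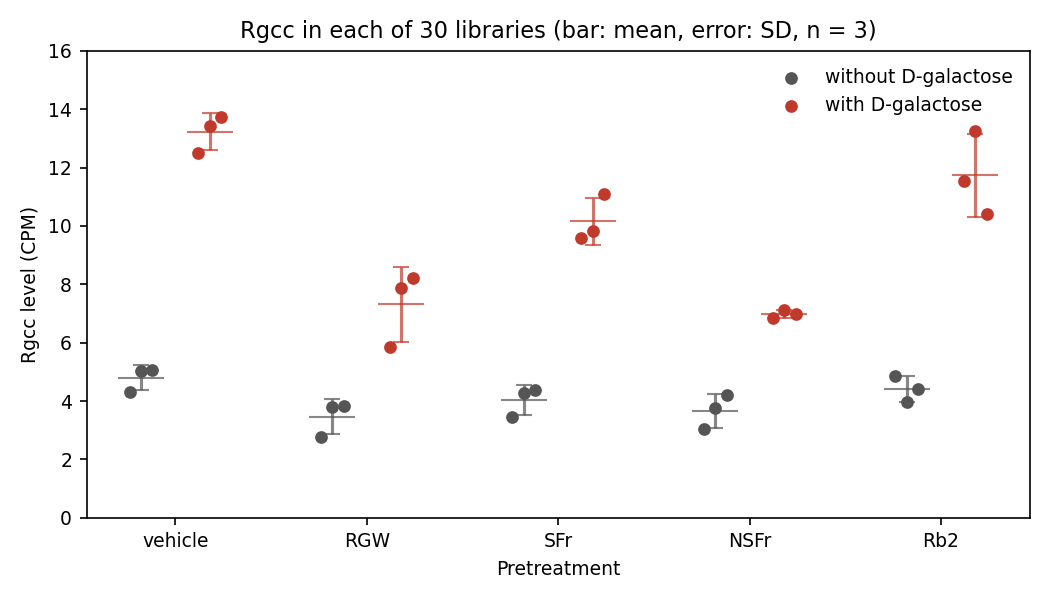
Level of Rgcc in CPM (vertical axis) in each of the 30 libraries, by pretreatment (horizontal axis); points are libraries, grey without and red with D-galactose, and bars are the mean ± SD of 3. The 15 grey points lie between 2.77 and 5.07 CPM and the 15 red points between 5.86 and 13.7 CPM.

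These 4 backgrounds share no library with the fold change that chose the gene, though they entered the minimum mean level. Tested in them, Rgcc rose after D-galactose every time. It rose 2.11-fold after RGW (log2 fold change 1.08 ± 0.14 SE, n = 3 per group, edgeR adjusted p = 8.11e-07) and 2.53-fold after SFr (1.34 ± 0.12, adjusted p = 6.36e-10). The rise was 1.91-fold after NSFr (0.93 ± 0.13, edgeR adjusted p = 8.89e-06) and 2.65-fold after Rb2 (1.41 ± 0.12, adjusted p = 3.05e-10). In the same comparisons 15.2%, 19%, 12.7% and 21% of 12184 genes were called in either direction. Averaged over the 4 backgrounds the rise was 2.28-fold, with a 95% interval of 2.08 to 2.49 (edgeR adjusted p = 2.79e-16, where 44.3% of genes were called). An exact two-sided permutation test of log2 CPM, with the D-galactose labels exchanged within backgrounds, gave p = 1.25e-05 for a mean difference of 1.18, the smallest value that its 160000 arrangements allow. That p follows from the separation of the libraries in all 4 backgrounds, which 3.39% of the genes tested showed. It restates this separation and adds no further support.

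By log2 fold change after D-galactose, Rgcc ranked 41 in the RGW, 18 in the SFr, 42 in the NSFr and 23 in the Rb2 background among all 12184 genes. Among the 9759 genes with a mean of at least 5 CPM over the 30 libraries it ranked first in each of the 4, as it had by choice with vehicle. That first rank is no independent support, since every group without D-galactose averaged under 5 CPM of Rgcc and the gene reached the minimum only through its groups with the sugar. Leaving out predicted genes and clone names, which left 9644, the next was Slc16a6 in the RGW (0.72), NSFr (0.92) and Rb2 (1.15) backgrounds. In the SFr background it was Fgfbp1, a carrier protein gene for fibroblast growth factors (1.09).

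**Figure D2:**
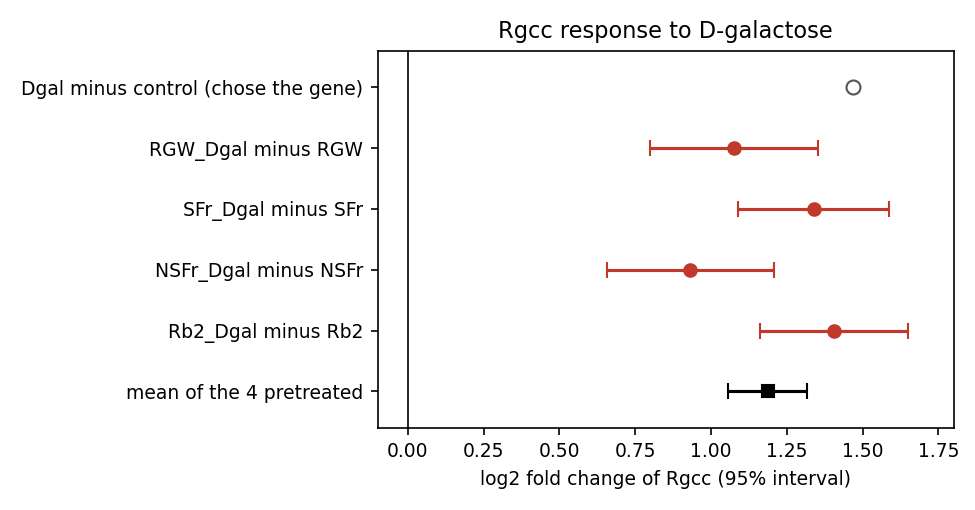
Log2 fold change of Rgcc after D-galactose (horizontal axis) in each background (rows), with 95% intervals from edgeR; the open circle is the comparison that chose the gene and has no interval. The intervals of the 4 pretreated backgrounds all lie above 0, from 0.66 at the lower end for NSFr to 1.65 at the upper end for Rb2.

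The share of counts from mitochondrially encoded genes moved with D-galactose in most backgrounds. It was 1.29% ± 0.0370 in RGW and 1.55% ± 0.184 in RGW_Dgal, 1.18% ± 0.0431 in NSFr and 1.42% ± 0.117 in NSFr_Dgal, and 0.858% ± 0.129 in Rb2 and 1.24% ± 0.0697 in Rb2_Dgal (SD, n = 3). After SFr it was 1.22% ± 0.120 without and 1.21% ± 0.224 with the sugar, while Rgcc rose there by 1.34 on the log2 scale. The summed level of the 18 myotube markers ranged from 35860 to 36350 CPM in RGW and from 36650 to 38010 CPM in RGW_Dgal, and from 27150 to 28650 CPM in SFr and 30290 to 32450 CPM in SFr_Dgal. It overlapped between NSFr (35390 to 36030) and NSFr_Dgal (35450 to 36330), and between Rb2 (34990 to 35840) and Rb2_Dgal (35420 to 36290). The 8 endothelial and immune markers summed to 1.75 to 2.69 CPM in RGW, NSFr and Rb2 and 2.54 to 3.62 CPM with D-galactose. They summed to 4.41 to 4.88 CPM in SFr and 6.25 to 6.86 CPM in SFr_Dgal. Only Cd68 among them had a mean of at least 1 CPM, at 1.91 CPM. The part of these shifts in the Rgcc result was not tested.

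With D-galactose present, the level of Rgcc differed with the preparation given before. The order of group means was Dgal at 13.2, Rb2_Dgal at 11.7 ± 1.42, SFr_Dgal at 10.2 ± 0.807, RGW_Dgal at 7.32 ± 1.28 and NSFr_Dgal at 6.98 ± 0.145 CPM (SD, n = 3). Ranges of neighbours overlapped between Dgal and Rb2_Dgal, between Rb2_Dgal and SFr_Dgal, and between RGW_Dgal and NSFr_Dgal. A gap lay between SFr_Dgal, lowest at 9.57 CPM, and RGW_Dgal, highest at 8.21 CPM.

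Of the 6 pairs of pretreated D-galactose groups, 4 differed in the edgeR test. At the matched dose of 100 µg/mL, RGW_Dgal was below SFr_Dgal by a log2 difference of -0.47 ± 0.11 (adjusted p = 0.000763), and SFr_Dgal was above NSFr_Dgal by 0.54 ± 0.11 (edgeR adjusted p = 0.000142). RGW_Dgal and NSFr_Dgal differed by 0.069 ± 0.12 (adjusted p = 0.921), with a 95% interval from -0.17 to 0.31. Rb2, whose dose is given in another unit, left more Rgcc than the water extract, with RGW_Dgal minus Rb2_Dgal at -0.68 ± 0.11 (edgeR adjusted p = 5.66e-05), and more than the non-saponin fraction, with NSFr_Dgal minus Rb2_Dgal at -0.75 ± 0.11 (adjusted p = 1.41e-05). SFr_Dgal minus Rb2_Dgal was -0.20 ± 0.10 (adjusted p = 0.115), with an interval from -0.41 to 0.0069. SFr_Dgal differed from the other groups in many genes, with 38.2% called against RGW_Dgal, 41% against NSFr_Dgal and 41.4% against Rb2_Dgal. Fewer were called for RGW_Dgal against NSFr_Dgal (0.64%) and for Rb2_Dgal against RGW_Dgal (7.94%) and NSFr_Dgal (9.24%). Against Dgal itself, whose libraries chose the gene, the log2 differences were -0.17 for Rb2_Dgal, -0.38 for SFr_Dgal, -0.85 for RGW_Dgal and -0.92 for NSFr_Dgal, given as a description.

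Without D-galactose the order was control at 4.80, Rb2 at 4.42 ± 0.445, SFr at 4.03 ± 0.512, NSFr at 3.66 ± 0.596 and RGW at 3.46 ± 0.599 CPM (SD, n = 3), and each group overlapped with the next. The RGW and NSFr libraries all lay below the 3 control libraries, which entered the choice of the gene, and those of SFr and Rb2 overlapped with them. None of the 6 pairs of preparations alone passed the edgeR threshold, with adjusted p from 0.142 to 0.866. The largest was RGW minus Rb2 at -0.35 ± 0.15 (unadjusted p = 0.0249, edgeR adjusted p = 0.142) and a 95% interval from -0.65 to -0.047. Called genes made up 39.1% for RGW minus SFr, 4.1% for RGW minus NSFr, 9.66% for RGW minus Rb2, 40.4% for SFr minus NSFr, 43.9% for SFr minus Rb2 and 20.6% for NSFr minus Rb2. Expected counts ran from 68 to 131 in these 4 groups. The counting error of a library, averaged within each group, was 9.18% to 10.7%. The spread between replicates was 10.1% to 17.3% (coefficient of variation).

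**Figure D3:**
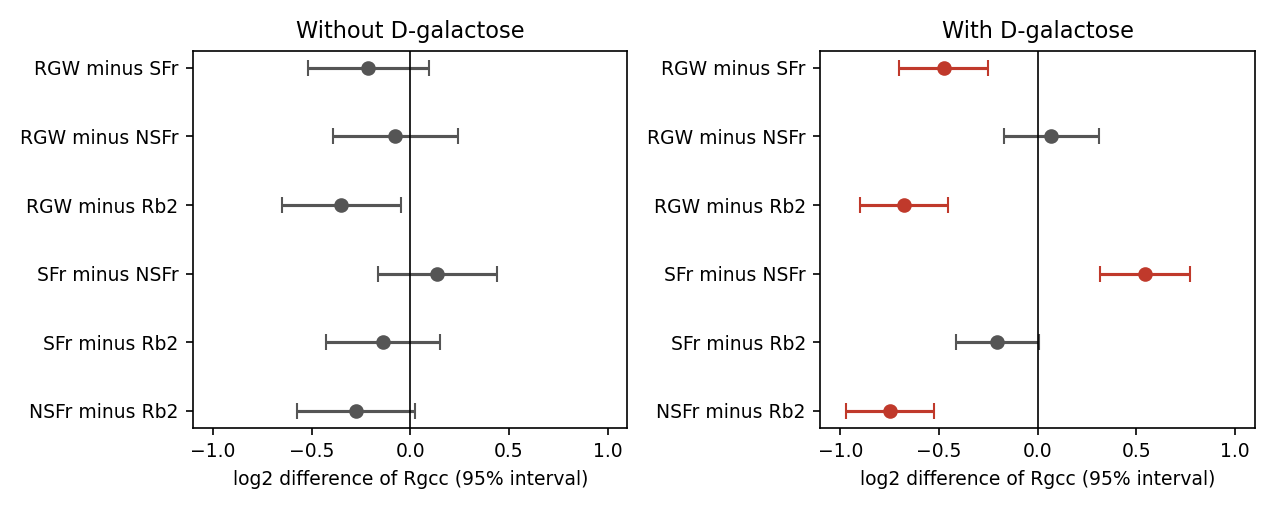
Log2 difference of Rgcc between preparations (horizontal axis, 95% intervals) for the 6 pairs without (left) and with D-galactose (right); red marks an edgeR adjusted p under 0.05. The 4 red intervals, all with D-galactose, set RGW and NSFr below SFr and Rb2.

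Whether the fold rise itself differed between backgrounds was tested directly. An interaction test over the 4 pretreated backgrounds gave an unadjusted p of 0.0513 and an edgeR adjusted p of 0.491, where 0.64% of genes were called. Of the 6 pairwise differences between responses, the furthest from 0 was NSFr minus Rb2 at -0.47 ± 0.18 (unadjusted p = 0.0149, edgeR adjusted p = 0.626), followed by SFr minus NSFr at 0.41 ± 0.19 (unadjusted p = 0.0359, adjusted p = 0.549). In NSFr minus Rb2, edgeR called 0 of 12184 genes, with 829 at an unadjusted p under 0.05, and DESeq2 called 4. Likewise edgeR and DESeq2 each called 0 genes for RGW minus NSFr (621 at an unadjusted p under 0.05 in edgeR) and for RGW minus Rb2 (697). Genes called by edgeR made up 0.509% for SFr minus NSFr, 0.624% for RGW minus SFr and 0.533% for SFr minus Rb2. For Rgcc, the 95% intervals of NSFr minus Rb2 and SFr minus NSFr ran from -0.85 to -0.099 and from 0.029 to 0.79. The levels with D-galactose therefore differed between preparations, while the differences of the fold rise did not pass the threshold after adjustment over all genes.

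The tested genes nearest to Rgcc on either side did not pass the test. Naa16, an N-terminal acetyltransferase subunit gene 23624 bases away at higher coordinates (79325269 to 79390778), had a mean response over the 4 backgrounds of -0.071 ± 0.055 (edgeR adjusted p = 0.307). Vwa8, 86446 bases away on the other side (78849052 to 79202310), had 0.030 ± 0.021 (adjusted p = 0.247). Neither passed in any of the 5 comparisons of D-galactose with its own baseline.

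Genes that share a profile with Rgcc were ranked by Pearson r of log2 CPM over the 30 libraries, among 9643 named genes of at least 5 CPM. The points share libraries and fall into cultures with and without D-galactose, so r reflects that split as well as differences within it and is given with no test. The 12 highest lay between 0.89 and 0.94, and 101 genes (1.05%) reached 0.8. All 12 had a log2 fold change above 0 in all 5 D-galactose comparisons, with means over the 4 pretreated backgrounds from 0.17 to 0.91, against 1.19 for Rgcc. Likeness to Rgcc, itself higher with D-galactose in every background, was how they were chosen, so this count is no independent support.

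Slc16a6 followed Rgcc most closely (r = 0.94, and 0.88 over the 15 libraries with and 0.36 over the 15 without D-galactose). It measured 13.1, 14.8 and 14.8 CPM in Dgal, 9.56, 8.51 and 9.66 CPM in RGW_Dgal and 9.02, 9.82 and 10.0 CPM in NSFr_Dgal. In SFr_Dgal it was 13.6 to 14.3 CPM and in Rb2_Dgal 13.1 to 15.2 CPM, so its RGW_Dgal and NSFr_Dgal libraries stood below those of the other D-galactose groups, as with Rgcc. Arrdc3 (r = 0.89) had the same low groups, at 90.1 ± 2.40 CPM in RGW_Dgal and 81.9 ± 0.682 CPM in NSFr_Dgal against 117 ± 7.66 in Dgal and 131 ± 6.46 in SFr_Dgal. Csrp3, the gene for muscle LIM protein of the sarcomere (r = 0.89), was highest in SFr_Dgal at 223 ± 16.7 CPM, above Dgal at 178 ± 6.92 and RGW_Dgal at 155 ± 7.23 CPM.

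Tmem43, a gene for an inner nuclear membrane protein (r = 0.93), and Xpo1, the nuclear exporter (0.92), had small changes, with mean responses of 0.20 and 0.17. The amino acid transporter gene Slc6a19 (0.92) had 0.61 and Tnfrsf21, which encodes death receptor 6 (0.90), had 0.58. Letm2 (0.90), Eid2b (0.90), Cdnf, a neurotrophic factor gene of the endoplasmic reticulum (0.89), and the protease gene Prss36 (0.89) had 0.45, 0.32, 0.43 and 0.44. The twelfth was Zmat3 (0.89), a p53 target, at 0.29. In the D-galactose groups, the means of all 12 genes were lower in RGW_Dgal, NSFr_Dgal and Rb2_Dgal than in Dgal, and those of 8 were lower in SFr_Dgal. The 12 were chosen by likeness to Rgcc, which was itself lower there in the same libraries, so these counts are no independent support. For Rb2_Dgal minus Dgal, the log2 differences ran from -0.0028 for Tnfrsf21 to -0.19 for Eid2b. Over deviations from the group means, r ran from -0.33 for Xpo1 to 0.64 for Csrp3 and was over 0.5 for 4 of the 12. For 8 of the 12, RefSeq gave an upstream window, and 3 of these held a GC box.

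**Figure D4:**
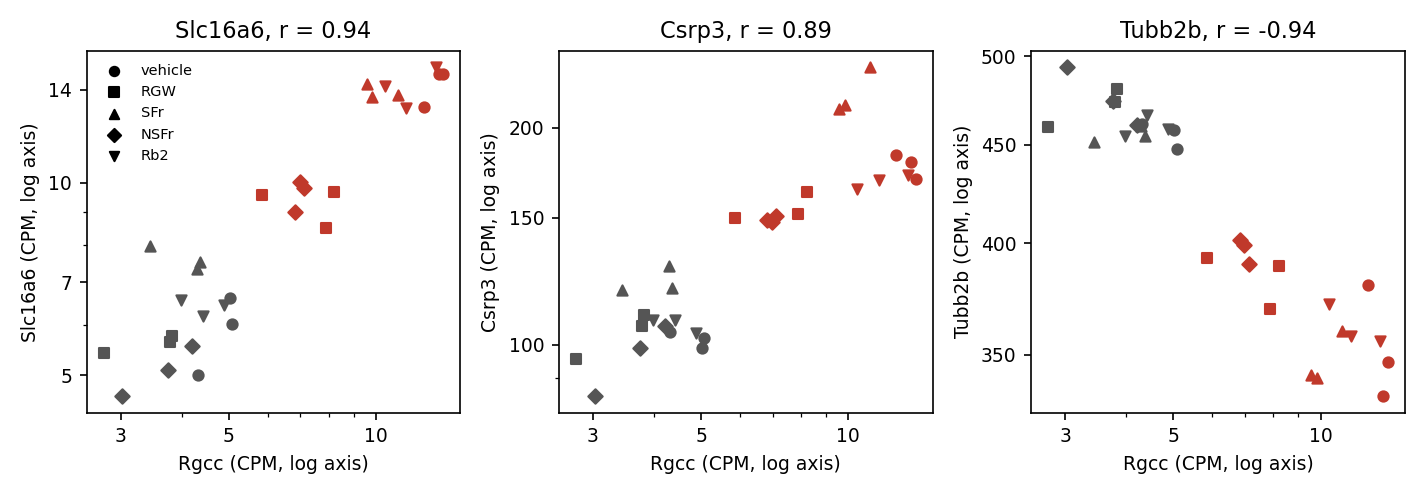
Level of Slc16a6, Csrp3 and Tubb2b (vertical axes, CPM, log scale) against Rgcc (horizontal axis, CPM, log scale) in the 30 libraries; red points had D-galactose, grey did not, and shapes give the pretreatment. Slc16a6 runs along with Rgcc (r = 0.94), the SFr_Dgal triangles lie highest for Csrp3 (r = 0.89), and Tubb2b runs the other way (r = -0.94).

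At the other end, 90 genes (0.933%) had r of -0.8 or less. The lowest were Tubb2b, a beta tubulin gene (-0.94), the translation elongation factor gene Eef2 (-0.93), Dnajc3, a co-chaperone gene of the endoplasmic reticulum (-0.93), Megf9 (-0.93), Emc1, of the membrane protein insertion complex of that organelle (-0.92), and H13, signal peptide peptidase (-0.92). Tubb2b was 448 to 461 CPM in control and 333 to 380 CPM in Dgal, and the 6 genes had mean responses over the pretreated backgrounds from -0.32 to -0.12. Over deviations from the group means, r of these genes ran from -0.80 for Dnajc3 to -0.0046 for H13, with Tubb2b at -0.21.

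Partners and pathway genes of RGCC were then read in the D-galactose responses, in lists drawn from textbook knowledge. Over the mean response in the 4 pretreated backgrounds, 21.3% of the 12184 genes were called higher and 23.1% lower, with a median log2 fold change of -0.00017. Most genes of the CDK1 and cyclin B machinery fell. Of 16 genes, 14 fell and 1 rose, with a median of -0.63. Cdk1 itself changed by -0.35 ± 0.035 (edgeR adjusted p = 1.05e-09), the cyclin B genes Ccnb1 by -0.84 ± 0.055 and Ccnb2 by -0.98 ± 0.052, and the mitotic kinase gene Plk1 by -0.66 ± 0.059. Cdk1 was called lower after RGW, NSFr and Rb2 and in Dgal against control, but not after SFr (-0.20, edgeR adjusted p = 0.0581). Cyclin A2, Ccna2, had -0.82 ± 0.040, and Foxm1, the transcription factor of mitotic genes, -0.75 ± 0.041. Wee1, the kinase that holds CDK1 inactive, rose by 0.15 ± 0.036, and the phosphatase gene Cdc25b, at 0.057 ± 0.026, did not pass (adjusted p = 0.0765). Of the single pretreated backgrounds, Wee1 was called only after SFr (0.27), and it was called in Dgal against control (0.22). Cdc25b was called higher only after RGW (0.17, edgeR adjusted p = 0.0232). Background by background, the number that fell was 11 with RGW, 8 with SFr, 14 with NSFr and 13 with Rb2, where 8.93%, 10.5%, 6.98% and 11.2% of genes were called lower, and 12 fell in Dgal against control (13.1%). Falls of division genes were already known from these data and are not independent support.

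Targets of p53, to which Rgcc has been assigned in other cells, rose in 15 of 26 tested cases and fell in 3, with a median of 0.12. In this mean response over the 4 pretreated backgrounds, 21.3% of all genes were called higher and 23.1% lower. Zmat3 rose by 0.29 ± 0.023 (edgeR adjusted p = 1.67e-12), the exonuclease gene Aen by 0.27 ± 0.021 and the antiproliferative gene Btg2 by 0.26 ± 0.020. Sesn1, Sesn2 and Perp were the 3 that fell. Trp53 changed by -0.11 ± 0.024 (adjusted p = 0.000393), and Cdkn1a, which encodes the CDK inhibitor p21, had 0.041 ± 0.019 (edgeR adjusted p = 0.0788). By background, Trp53 was called only after SFr (-0.23, edgeR adjusted p = 0.000629). It was not called after RGW (-0.055), NSFr (-0.12) or Rb2 (-0.032), nor in Dgal against control (-0.0021). By background, 6 rose with RGW, 9 with SFr, 12 with NSFr and 12 with Rb2. Over all genes, 6.3%, 8.46%, 5.76% and 9.81% were called higher there. Falls numbered 2, 3, 1 and 1 in the same order, against 8.93%, 10.5%, 6.98% and 11.2% of all genes. In Dgal against control 16 rose and 1 fell, where 11.9% and 13.1% of all genes did.

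Of 14 TGF-beta ligand, receptor and SMAD genes, 2 rose, 4 fell and 8 were not called, near the 21.3% higher and 23.1% lower over all genes. Those that fell were the receptor genes Tgfbr1 (-0.32 ± 0.025, edgeR adjusted p = 1.58e-12) and Tgfbr2 (-0.17 ± 0.019), Smad4 (-0.079 ± 0.020) and the partner Smad3 (-0.058 ± 0.020, adjusted p = 0.0203). Neither Smad4 nor Smad3 was called in any single pretreated background. The ligand gene Tgfb1 had 0.018 ± 0.026 (edgeR adjusted p = 0.603). Of 18 tested target genes, 5 rose, 2 fell and 11 were not called. The actin-binding gene Tagln rose by 0.46 ± 0.031, whereas the transcription factor gene Snai2 changed by -0.37 ± 0.026. The AKT list, which includes the kinase gene Akt1 at -0.028 ± 0.014 (edgeR adjusted p = 0.11), had 3 rises and 5 falls among 16, with Pik3r1 at -0.17 ± 0.029, Pik3cb at 0.11 ± 0.020 and Mtor at 0.13 ± 0.027.

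Of 26 complement genes, for which Rgcc was first described as a response gene, 13 passed the filter on low counts. Of these 1 rose, the C1 inhibitor gene Serping1 (0.40 ± 0.029, edgeR adjusted p = 6.21e-13), and 2 fell, among them C1s1 (-0.085 ± 0.026). Of 20 hypoxia-inducible genes, 10 rose and 0 fell in the mean response, where 21.3% of all genes were called higher, with a median of 0.087. Rises and falls by background were 2 and 1 for RGW, 8 and 0 for SFr, 1 and 0 for NSFr and 8 and 1 for Rb2. In Dgal against control they were 9 and 0. Over all genes, in the same order, 6.3%, 8.46%, 5.76%, 9.81% and 11.9% were called higher. The shares called lower were 8.93%, 10.5%, 6.98%, 11.2% and 13.1%. The risers included Adm, the adrenomedullin gene (0.42 ± 0.045), Car9, carbonic anhydrase 9 (0.30 ± 0.034), and the oxygen sensor gene Egln1 (0.16 ± 0.022). Of 24 FOXO targets, 10 rose and 3 fell, against 21.3% and 23.1% of all genes. By background there were 2 rises and 1 fall for RGW, 6 and 0 for SFr, 1 and 0 for NSFr and 6 and 1 for Rb2. In Dgal against control there were 7 and 1. The shares over all genes in these comparisons are those given for the hypoxia list. Examples were Pik3ip1 at 0.25 ± 0.030, Tsc22d3 at 0.16 ± 0.023 and Cited2 at 0.15 ± 0.020. Of 9 tested glucose-responsive genes, 4 rose and 1 fell, including Arrdc3 (0.76 ± 0.029), the hexokinase gene Hk2 (0.32 ± 0.020) and Pfkfb3 (0.33 ± 0.027). Of 10 glucocorticoid-responsive genes, 3 rose and 3 fell, with the phosphatase gene Dusp1 at 0.32 ± 0.025, Ddit4l at 0.32 ± 0.051 and the metallothionein gene Mt1 at -0.14 ± 0.036.

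Of 18 tested myotube markers, 12 rose and 2 fell in the mean response, with a median of 0.11, where 21.3% of all genes were called higher. The rises came to 3 for RGW, 9 for SFr, 2 for NSFr and 2 for Rb2, with 2, 1, 1 and 1 falls. Over all genes, 6.3%, 8.46%, 5.76% and 9.81% were called higher there and 8.93%, 10.5%, 6.98% and 11.2% lower. In Dgal against control 3 rose and 3 fell, where 11.9% and 13.1% of all genes did. The median there had the other sign, at -0.042. Among them were Myog (0.16 ± 0.024), Acta1 (0.13 ± 0.017) and the embryonic myosin gene Myh3 (-0.32 ± 0.022). Of 12 tested markers of undifferentiated myoblasts, 2 rose and 3 fell, with Pax7 at 0.23 ± 0.030, Heyl at -0.18 ± 0.022 and Spry1 at -0.15 ± 0.020. Cd68 rose by 1.04 ± 0.11 from its low level (edgeR adjusted p = 7.22e-10), and the endothelial genes Cdh5 and Tek, at 0.211 and 0.368 CPM, did not pass. Sox9 (-0.18 ± 0.023) and Runx2 (0.16 ± 0.037) stood among the bone and cartilage markers, 1 of 3 tested higher and 1 lower, with Sp7 at -0.037 ± 0.21. The tested fat cell markers Cebpa (-0.080 ± 0.046) and Pparg (0.032 ± 0.049) did not pass.

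**Figure D5:**
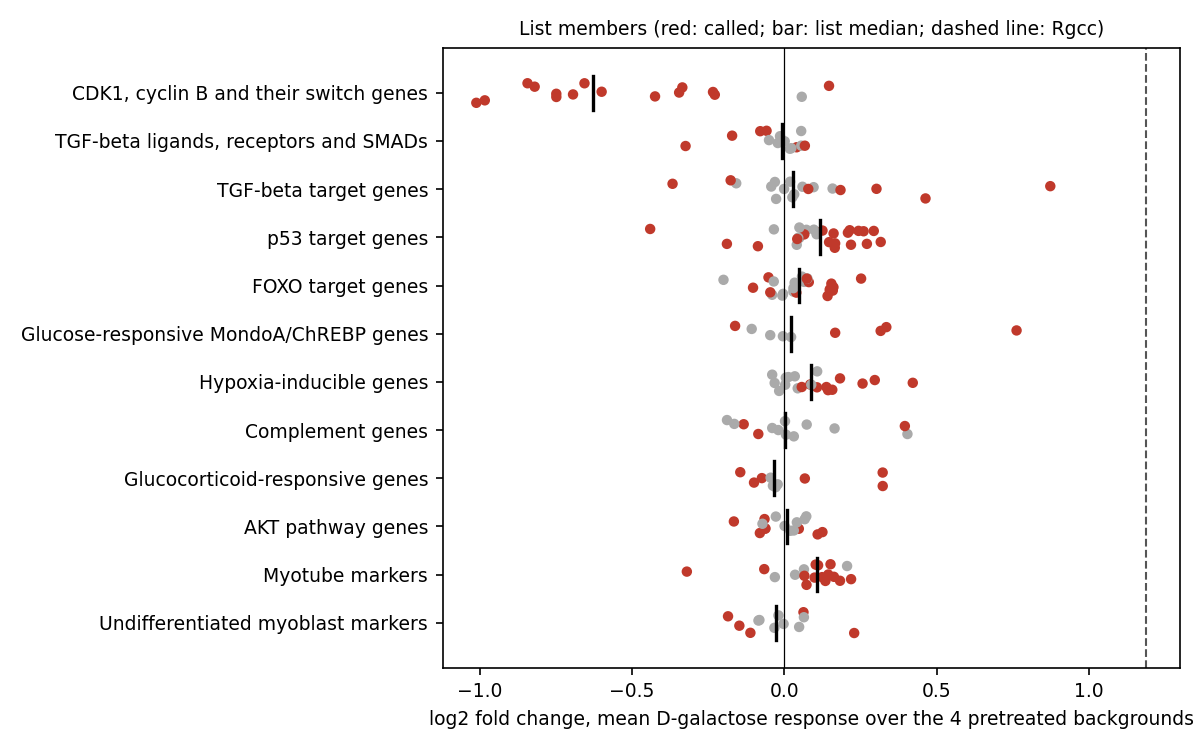
Mean log2 fold change after D-galactose over the 4 pretreated backgrounds (horizontal axis) for each tested member of 12 gene lists (rows); red points had an edgeR adjusted p under 0.05, bars are list medians and the dashed line is Rgcc at 1.19. The CDK1 list lies furthest to the left (median -0.63), and none of the plotted points reaches the dashed line.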

How the data were processed

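RNA was sequenced from 30 cultures in 10 groups of 3. Strand-specific libraries of poly(A) RNA were read on a DNBSEQ instrument, per the labels. The deposited expected counts per gene symbol came from RSEM 1.3.3, with STAR 2.7.9a, Trim Galore 0.6.10, FastQC 0.11.9 and the builds GRCm38 and mm10 named per the submitters' processing notes; for annotation and strand setting, none was given in the sources used here. Of the values, 19.4% were not whole; all were rounded. The 30 replicate pairs differed beyond sampling noise (chi-square per degree of freedom 2.48 to 13.7), so none was merged.

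edgeR 4.0.16 in R 4.3.3 (quasi-likelihood F-test, robust, TMM, filterByExpr) was fitted once to all 30 libraries and 12184 genes, with Benjamini-Hochberg adjustment over all genes and calls at 0.05. CPM use TMM-scaled totals. Standard errors are the absolute log2 fold change over the square root of F. Ranking used log2 CPM (prior count 2). The test was checked on simulated data.

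Members, 15 lists of 246 genes and tests were chosen with earlier results of these data known. Named were the 12 highest and 6 lowest genes by r, fixed partners of RGCC, up to 3 list members of smallest p in the mean response and the nearest tested neighbours; other names were chosen after their values were seen. Some list members that this rule names are not reported here. Alternatives were RLE scaling, no filter, DESeq2 1.42.0, a replicate block, a fit of the compared groups alone and leaving out single libraries. Of 16025 symbols, 16021 matched GENCODE vM21.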

Additional observations from a re-analysis of the deposited data

How the results depend on the processing

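The 4 rises of Rgcc after D-galactose kept their direction and their call under all alternatives run (adjusted p at most 0.00132), as did the 4 differences between pretreated D-galactose groups (at most 0.0163). With single libraries left out, the log2 fold change ran from 0.94 to 1.22 after RGW, 1.24 to 1.41 after SFr, 0.82 to 1.04 after NSFr and 1.31 to 1.49 after Rb2. Differences that had not passed changed sign when 1 library was left out: RGW minus NSFr (-0.19 to 0.052), RGW_Dgal minus NSFr_Dgal (-0.020 to 0.21) and the response after SFr minus after Rb2 (-0.17 to 0.038). The interaction test stayed above the threshold, with adjusted p from 0.346 to 0.678. DESeq2 gave no adjusted p for the responses after RGW minus SFr and NSFr minus Rb2.

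With only the groups compared, fewer genes were called after RGW (1154 against 1855) and SFr (1466 against 2315) and more after NSFr (1888 against 1553) and Rb2 (3219 against 2562). Without single libraries the count after Rb2 ran from 1672, without Rb2_Dgal 2, to 2126, against 2562. It was also lower in the other comparisons, at 1293 to 1700 after RGW (against 1855) and 1784 to 2101 after SFr (against 2315). After NSFr it was 1041 to 1222 (against 1553), and in Dgal against control 2104 to 2787 (against 3057). The cause was not tested. Of the 12 genes most like Rgcc, 7 were shared with Spearman's rho, 5 without the SFr and SFr_Dgal libraries, 4 over the 10 group means, 10 with RLE scaling and 0 over deviations from the group means, so the list depends on the measure.

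Same-numbered libraries correlated from -0.12 to 0.16 in their deviations, over 0.1 in 1 of 15 pairs. Among baseline libraries, 6 of 15 correlated best with their own number. With 3 libraries per group, these correlations cannot show whether same-numbered libraries share more than a number. For Rgcc, the first library was the lowest in every group except Rb2 and Rb2_Dgal, and the reason was not tested. With the replicate block the mean response was 1.19, the interaction had an adjusted p of 0.404, and 3000 genes were called in Dgal against control, against 3057; the block changed no call of Rgcc. In the 4 groups of a preparation alone, the counting error of Rgcc, averaged within each group, was 9.18% to 10.7%. The spread between replicates was 10.1% to 17.3%.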
